A study of Mus musculus with 8 samples.

Results

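Klf6 ChIP-seq peaks were examined at 7 genes that encode signalling, vesicle, membrane and matrix proteins: Tgfa, Csnk1g3, Pde4b, Rab3b, Atp1b2, Pcp4l1 and Fbn2. The genes were chosen from the study's list of genes with both a transcript change after Klf6 silencing and a Klf6 peak, so the presence of a peak at each of them is the reason for their choice and not a result. Their peaks were taken as every peak to which the authors assigned 1 of these symbols, at any listed distance. That gave 12 peaks at 7 genes, of 7855 peaks at 3888 genes with a listed symbol and 36280 peaks in all. The RNA-seq values of the study were not used here.

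Klf6 was immunoprecipitated from primary C57BL/6 mouse cells at 2 stages, with 2 biological replicates (A and B) and an input sample for each. Oligodendrocyte progenitors (OLP) grew in PDGF-AA at 10 ng/ml and bFGF at 20 ng/ml and received no T3. Immature oligodendrocytes (iOL) were cultures of such progenitors given the thyroid hormone T3 at 40 ng/ml for 18 h. The labels do not say whether PDGF-AA and bFGF stayed in the medium with T3. Between 5777 and 12451 peaks were listed per ChIP sample, holding 105081 to 152149 tags. The labels give the same antibody lot for all 4 ChIP samples. The peak lists hold no marker expression against which the labelled stages could be checked.

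Klf6 is a zinc-finger transcription factor of the Krüppel-like family, whose members bind CACCC boxes and GC boxes. The 7 genes act at different levels of signalling and membrane function. Tgfa encodes transforming growth factor alpha, a ligand of the EGF receptor, which drives proliferation in many cell types. Csnk1g3 encodes a membrane-associated casein kinase 1, and Pde4b a phosphodiesterase that degrades cAMP, a second messenger with effects on oligodendrocyte differentiation. Rab3b encodes a small GTPase of regulated exocytosis, Atp1b2 the glial beta subunit of the Na,K-ATPase, Pcp4l1 a small protein related to the calmodulin regulator PEP-19, and Fbn2 the extracellular matrix protein fibrillin-2.

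The sequences under the peaks differed among the genes in how often they recur in the genome. The 6 peaks of Tgfa, Pde4b, Rab3b, Atp1b2 and Pcp4l1 are shown whole, since their recurrence and the few KLF-type motifs can be read in them. All are on the plus strand of mm9 (NCBIM37), and capitals mark bases within a 20-base stretch with more than 1 copy in the genome, counting both strands. They cover chr6:86137174-86137334 and chr6:86122667-86122864 (Tgfa in OLP A and OLP B), chr4:102252675-102252863 (Pde4b), chr4:108540451-108540607 (Rab3b), chr11:69421875-69421963 (Atp1b2) and chr1:173133591-173133748 (Pcp4l1).
Tgfa OLP A: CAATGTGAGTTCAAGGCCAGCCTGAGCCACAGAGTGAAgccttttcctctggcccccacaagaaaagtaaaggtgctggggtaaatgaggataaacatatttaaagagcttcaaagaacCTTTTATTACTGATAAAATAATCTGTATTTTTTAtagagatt
Tgfa OLP B: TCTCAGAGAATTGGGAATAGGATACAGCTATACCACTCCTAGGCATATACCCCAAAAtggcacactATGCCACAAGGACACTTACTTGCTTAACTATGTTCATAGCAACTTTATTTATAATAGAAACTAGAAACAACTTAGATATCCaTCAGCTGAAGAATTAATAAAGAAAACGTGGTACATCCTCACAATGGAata
Pde4b OLP B: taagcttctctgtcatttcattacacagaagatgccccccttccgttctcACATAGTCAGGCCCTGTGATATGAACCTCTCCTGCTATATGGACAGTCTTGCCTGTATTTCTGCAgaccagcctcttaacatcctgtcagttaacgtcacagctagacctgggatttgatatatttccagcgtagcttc
Rab3b iOL A: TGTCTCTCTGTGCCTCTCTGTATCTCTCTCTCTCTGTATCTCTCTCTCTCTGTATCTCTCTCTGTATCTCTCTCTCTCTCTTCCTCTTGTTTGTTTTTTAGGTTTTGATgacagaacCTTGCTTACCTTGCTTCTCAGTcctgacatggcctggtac
Atp1b2 iOL A: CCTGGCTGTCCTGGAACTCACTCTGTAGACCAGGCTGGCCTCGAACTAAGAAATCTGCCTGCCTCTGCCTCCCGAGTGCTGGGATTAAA
Pcp4l1 OLP B: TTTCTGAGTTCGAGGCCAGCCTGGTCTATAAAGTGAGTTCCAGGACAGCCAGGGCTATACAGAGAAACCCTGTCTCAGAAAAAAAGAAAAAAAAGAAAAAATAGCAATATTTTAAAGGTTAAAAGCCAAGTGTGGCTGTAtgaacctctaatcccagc

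The sequences at Atp1b2 and Pcp4l1 were partly the same. A run of 22 bases, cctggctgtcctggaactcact, opens the Atp1b2 peak, and its reverse complement lies at bases 32 to 53 of the Pcp4l1 peak. Within it, the 20-base stretch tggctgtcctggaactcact occurred 79377 times in the genome, the most of any stretch in either peak. Capitals cover 100% of the Atp1b2 peak and 88.6% of the Pcp4l1 peak. The Rab3b peak, with capitals over 83.4% of its bases, was rich in pyrimidines. C or T made up 76.4% of its bases, and 6 runs of alternating C and T of at least 6 bases, the longest of 15 bases, took up 63 of its 157 bases. Its summit, at base 42, fell among these runs. The Pde4b peak had capitals over 34.4% of its bases, the smallest share of the 6, and no 20-base stretch in it occurred more than 2 times.

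Across the 12 peaks, 7 consisted mostly of repeated sequence, meaning that over 50% of their 32-base stretches occurred more than once in the genome. The same was true of 82.0% of all peaks with a listed gene, so the genes' peaks had no higher share than the lists as a whole. With 20-base stretches, 8 of 12 peaks were mostly repeated against 85.2% of all listed peaks. Csnk1g3, Atp1b2 and the far upstream site of Fbn2 were the most repeated. At Csnk1g3, 100% of the 32-base stretches of the OLP A peak and 84.4% of those of the iOL A peak recurred, and at Atp1b2 100% did. At the far upstream site of Fbn2 the share was 94% in OLP A, 96.6% in OLP B and 94.5% in iOL A. Pcp4l1 was at the 50% line, with 64 of 127 stretches repeated. At Rab3b 15.9% of the 32-base and 55.1% of the 20-base stretches recurred, so that peak was mostly repeated only with the shorter ones. The peaks at Tgfa, at Pde4b and within Fbn2 held almost no repeated 32-base stretches, with 0% and 2.4% at Tgfa, 0% at Pde4b and 0% at the intronic Fbn2 site. With 20-base stretches the shares were 16.2% (OLP A) and 40.2% (OLP B) at Tgfa, 5.3% at Pde4b and 1.6% at that Fbn2 site. Reads from a repeated stretch can be placed at any of its copies. The reporting mode of Bowtie2 is not given in the sources used here, and the part of read placement in these peaks was not tested.

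**Figure D1:**
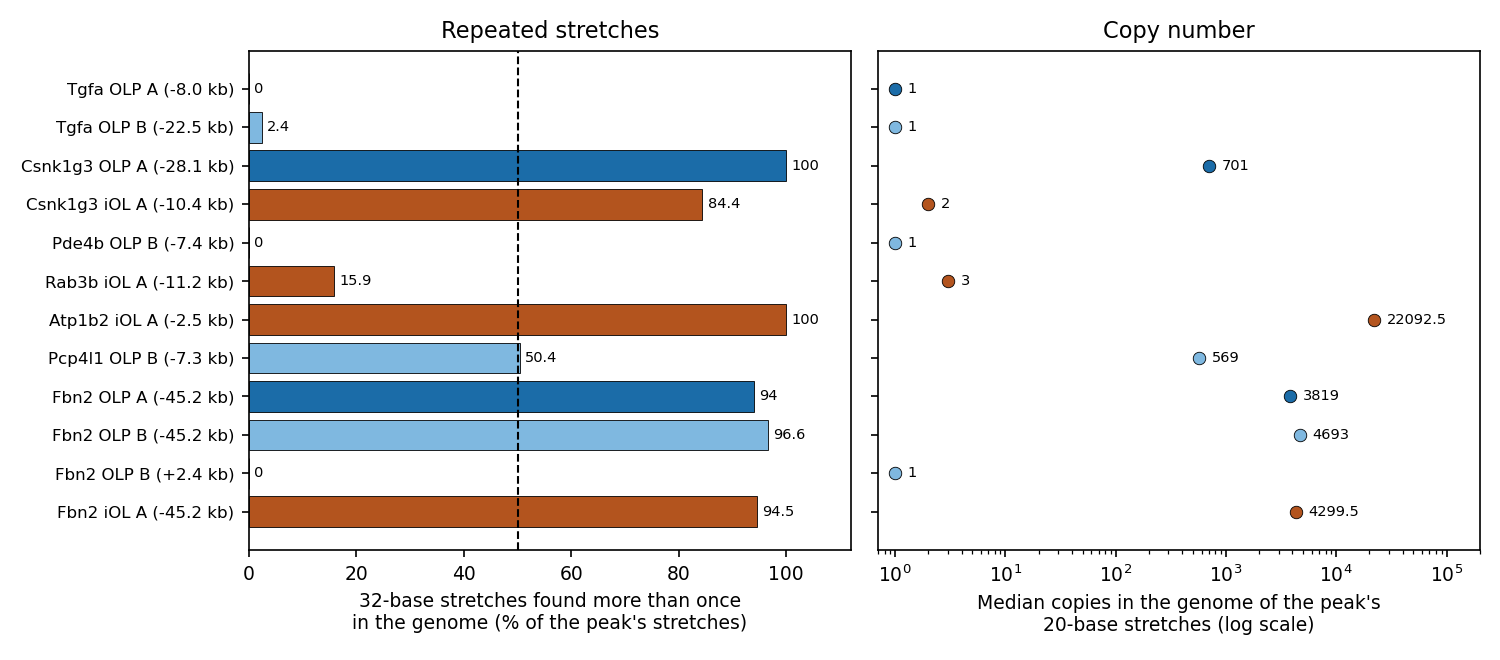
Left, share of the 32-base stretches of each of the 12 peaks that occur more than once in the genome (percent, dashed line at 50%). Right, median number of genome copies of the peak's 20-base stretches (log scale), with bar and point colours giving the sample (dark blue OLP A, light blue OLP B, brown iOL A). The peaks of Csnk1g3, Atp1b2 and the far upstream site of Fbn2 lie at 84.4% or above, and those of Tgfa, Pde4b and the Fbn2 intron at 2.4% or below.

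Short GC-type motifs were rare both in these peaks and among listed peaks of similar length. The letters CCNCCC, on either strand, were found in 2 of 12 peaks. They were CCCCCC at base 35 of the Pde4b peak and CCTCCC at base 68 of the Atp1b2 peak. Every base of these 2 peaks lay within 100 bases of the summit, so a limit at that distance could not change the count. Among all 6922 listed peaks between the shortest and longest of these lengths, 9.01% held it. CACCC was in 0 of 12 peaks against 14.8% of those peaks, and GGGCGG in 0 of 12 against 0.621%. Every GGGCGG also counts as CCNCCC when both strands are read, and CCNCCC can overlap CACCC, with which it shares letters. The RefSeq promoter table (GRCm38.p6, 250 bases before to 50 after the start) matched 4 of the 7 genes by symbol, Tgfa, Pde4b, Rab3b and Pcp4l1. In those promoters CCNCCC was found at 4 of 4 genes, against 70.1% of all genes in the table. CACCC was found at 3 of 4 (Tgfa, Pde4b, Rab3b) against 59.8%, and GGGCGG at 2 of 4 (Tgfa, Rab3b) against 38.2%. The 4 genes had 7 promoters there. By promoter, CCNCCC was in 7 of 7 against 68.6% and CACCC in 5 of 7 against 57.5%. GGGCGG was in 2 of 7 against 35.7%. The listed peak closest to a start of these 4 genes was 7.3 kb from it, so no listed peak lay in the promoters searched.

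Distances were taken from the nearest listed RefSeq start, which need not be the first start of the gene. The authors listed the nearest RefSeq start from 50 kb upstream to 5 kb downstream, and 14.9% of the other protein-coding genes in the reference annotation had a peak in that range in at least 1 sample. Of the 12 peaks, 11 were upstream and 1 downstream of that start, with a median of 10.8 kb upstream. The window of 15 kb upstream to 5 kb downstream that the study used held 7 of the 12 peaks and at least 1 peak of each of the 7 genes, against 38.8% of all listed peaks. The study built the list of genes on peaks in that window, so these counts were fixed by the choice of genes and nothing is read from them. No peak overlapped an exon. In the GENCODE annotation of the same build, 2 lay in introns of their own gene (Pde4b and Fbn2) and 10 in no gene.

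**Figure D2:**
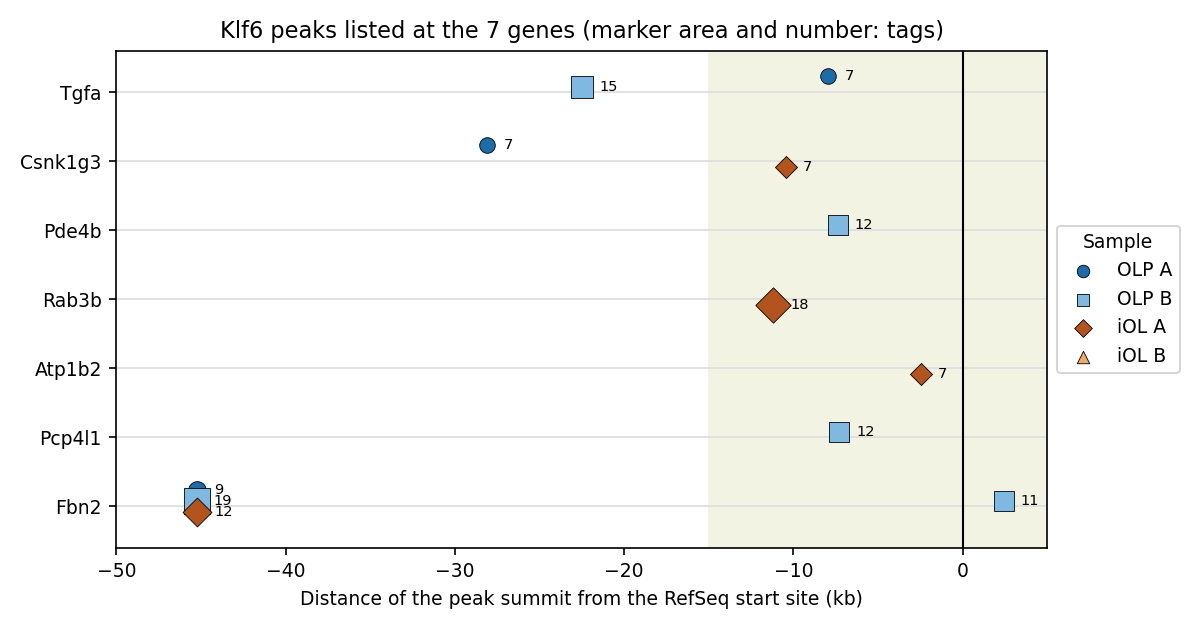
Position of the 12 peaks at the 7 genes, as the distance of the summit from the RefSeq start (kb, negative upstream), with marker shape and colour giving the sample and the number and marker area the tags in the peak. The shaded band is 15 kb upstream to 5 kb downstream. Each gene has 1 peak in the band, 3 peaks of Fbn2 coincide at 45.2 kb upstream, and iOL B has no peak.

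Tgfa, the EGF receptor ligand, had a peak in both OLP replicates and none in iOL, but at different places. The OLP A peak held 7 tags and lay 8.0 kb upstream of the start (161 bp, fold enrichment over background 9.72). The OLP B peak held 15 tags and lay 22.5 kb upstream (198 bp, fold enrichment 6.97). The sites were separated by 14.3 kb, so neither replicate supported the peak of the other. A count of 7 tags, the fewest of any OLP A peak, have an exact Poisson 95% interval of 2.8 to 14.4, and 15 tags one of 8.4 to 24.7, which cover counting error only. The nearest other coding gene, Add2, was 67.6 kb and 53.1 kb away. The nearest peak in iOL was 319.8 kb from the start.

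Csnk1g3, the casein kinase 1 gene, was listed in 1 OLP and 1 iOL sample, again at different places. On chromosome 18, the OLP A peak (53993586 to 53993741) lay 28.1 kb upstream and the iOL A peak (54011268 to 54011375) 10.4 kb upstream, 17.5 kb apart. Both held 7 tags, the minimum of their samples, with fold enrichments of 9.72 and 12.32. The nearest peak of OLP B or iOL B to either site was 146.2 kb away. A gene-level list would name Csnk1g3 in both stages, whereas by position the stages shared no site there.

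Pde4b, which encodes the cAMP phosphodiesterase, was listed with 1 peak, in OLP B. It held 12 tags (95% interval 6.2 to 21.0) over 189 bp at 7.4 kb upstream of the start of a short transcript. That position was inside the gene, in an intron of 5 longer transcripts and 492.6 kb from the first annotated start. Its score of 41.13 (10 times the negative log10 of the p-value of the peak caller, which kept peaks from 40) and its fold enrichment of 6.47 were the lowest of the 12, and 7.5% of OLP B peaks had a lower fold. The nearest peak of any other sample was 115.8 kb away.

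Rab3b, the exocytosis GTPase, had the peak with the highest fold enrichment and score of the 12, although values of different samples are not on 1 scale and an Fbn2 peak of OLP B held 1 tag more. It was in iOL A, 11.2 kb upstream of the start, and held 18 tags (10.7 to 28.4) over 157 bp. Its fold enrichment was 39.18 and its score 162.99. It ranked 219 of 10225 peaks of that sample by fold and 41 of the 2222 with a listed gene. The nearest peak of the other replicate, iOL B, was 87.7 kb away. In iOL A, 75.8% of listed peaks with a score of 100 or more had an iOL B peak within 500 bp, so the Rab3b peak was among the minority of strong peaks without one. The peak was 5.7 kb from Txndc12, the nearest other coding gene, and the authors' list gives Btf3l4 beside Rab3b for it.

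Atp1b2, the Na,K-ATPase subunit gene, had the peak closest to a start among the upstream peaks, 2.5 kb upstream in iOL A. It was the shortest, at 89 bp, and held 7 tags (2.8 to 14.4) with a fold enrichment of 17.37. The locus is dense. Shbg was 6.3 kb away, and the list also named Efnb3, Fxr2, Sat2, Sox15 and Wrap53 for this peak. The nearest peaks of iOL B and OLP A were 53.7 kb and 174.9 kb away.

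Pcp4l1, related to the calmodulin regulator gene Pcp4, had 1 peak, in OLP B, 7.3 kb upstream. It held 12 tags (6.2 to 21.0) with a fold enrichment of 10.14, close to the OLP B median of 9.95. The nearest peak of OLP A, the same-stage replicate, was 942.1 kb away. The list named Adamts4, Apoa2 and Nr1i3 as well, and Nr1i3 was 10.4 kb from the peak.

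Fbn2, the fibrillin-2 gene, was the only 1 of the 7 with a listed site found in more than 1 sample. Far upstream, at 45.2 kb from the start, peaks of OLP A (chromosome 18, 58414721 to 58414934), OLP B (58414758 to 58414933) and iOL A (58414701 to 58414931) overlapped. They held 9 (4.1 to 17.1), 19 (11.4 to 29.7) and 12 (6.2 to 21.0) tags, with fold enrichments of 12.15, 7.97 and 18.19. Tag numbers were not normalised between samples. At sites shared by the OLP replicates over the genome, OLP B held a median of 1.29 times the tags of OLP A. At sites shared by OLP B and iOL A, iOL A held a median of 0.769 times the tags of OLP B. The nearest peak of iOL B was 68.9 kb from the site. In the reference annotation the nearest start to it was a 5S_rRNA copy, 23.6 kb away, and the nearest coding gene other than Fbn2, Slc27a6, was 301.0 kb away. A second Fbn2 site, in OLP B, lay 2.4 kb downstream of the start within an intron (58367102 to 58367248) and held 11 tags (5.5 to 19.7) with a fold enrichment of 7.88. It was unique in sequence and the nearest peak of another sample was 21.3 kb away.

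**Figure D3:**
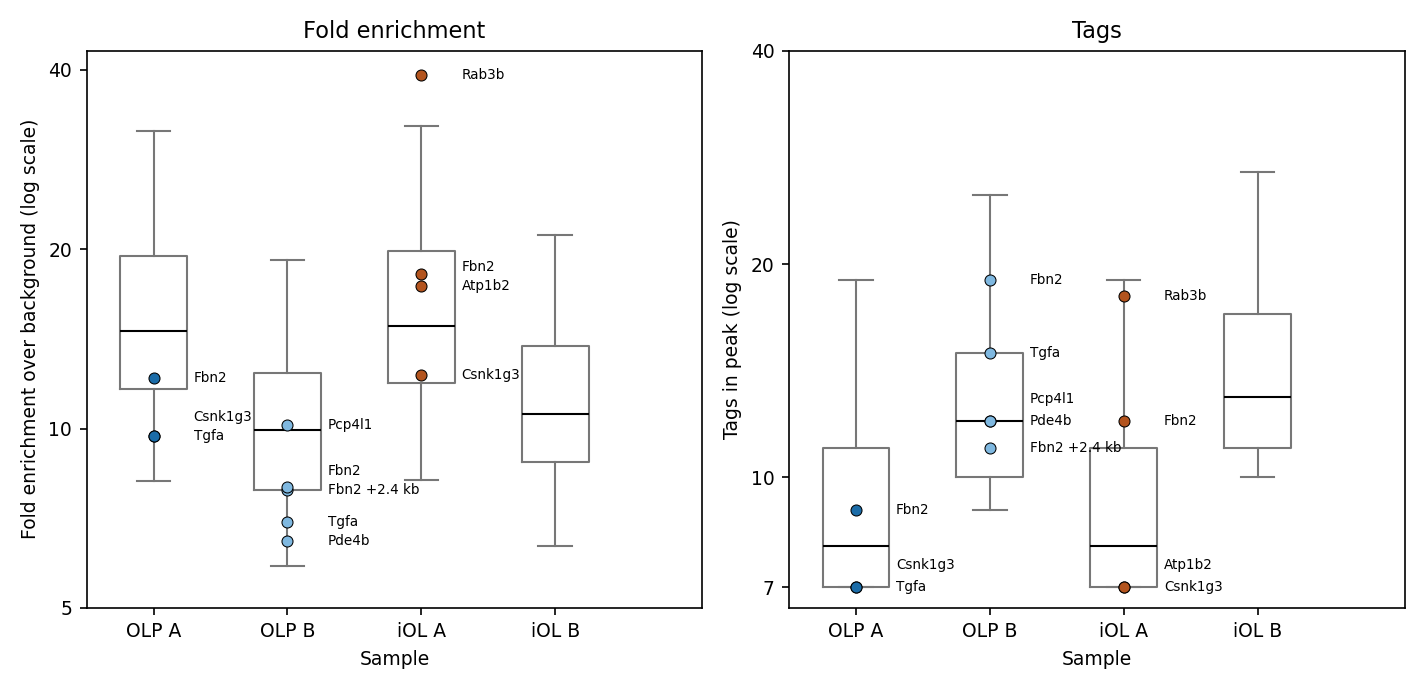
Fold enrichment over background (left) and tags (right), both on log scales, of all peaks of each sample (box, quartiles with the median line; whiskers, 5th to 95th percentile) with the peaks of the 7 genes as labelled points. Tags and fold are not comparable between samples. Rab3b lies above the whisker of iOL A in fold at 39.18, and 8 of the 12 points lie below their own sample's median fold.

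The 12 peaks held few tags, and most were below their sample's median in fold but not in score or tags. Tags ranged from 7 to 19 and fold enrichments from 6.47 to 39.18. In fold, 8 of 12 were below the median of their own sample and 4 above it (Pcp4l1, and in iOL A Rab3b, Fbn2 and Atp1b2). In all, 4 peaks held the minimum number of tags, in samples where 33.3% (OLP A) and 32.8% (iOL A) of all peaks did. By score, 6 peaks were above their own sample's median and 6 below it, and by tags 5 were above, 2 at and 5 below it. The false discovery rate of the peak caller was at most 1.25% for any of them. The peaks of iOL B, which had the fewest peaks and a minimum of 10 tags, included none of these genes. That sample held 1242 of all 7855 peaks with a listed gene.

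**Figure D4:**
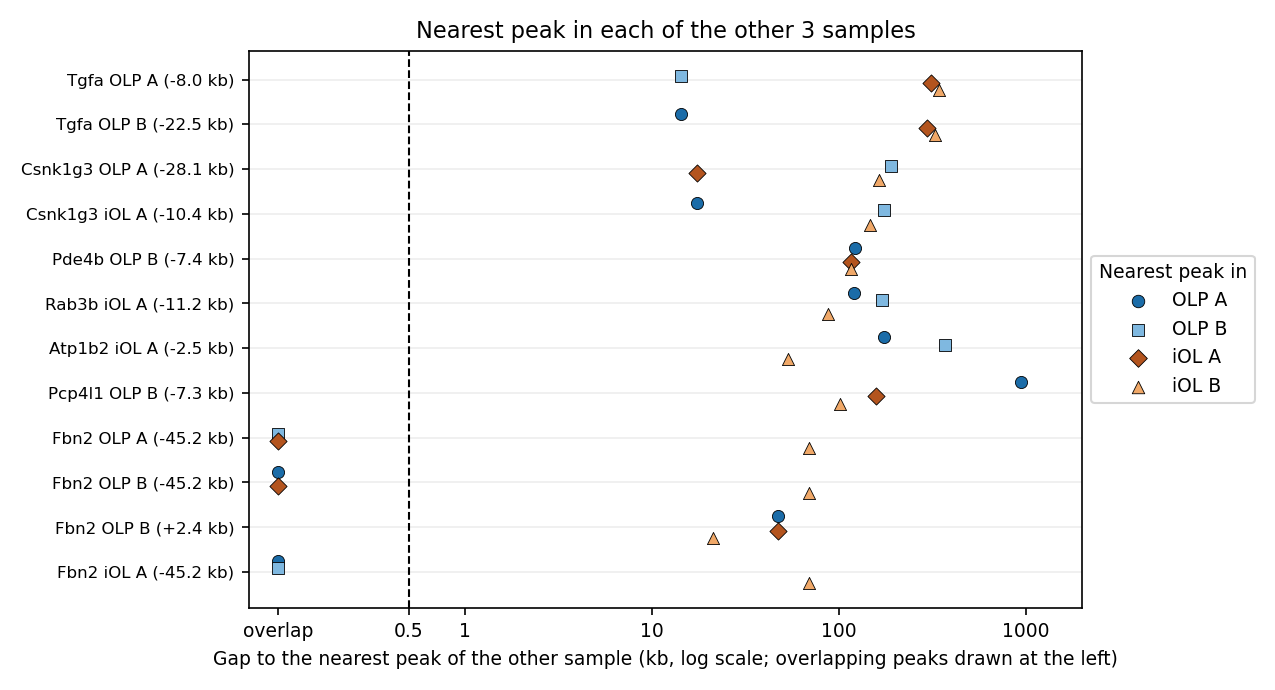
Gap from each of the 12 peaks to the nearest peak of each of the other 3 samples (kb, log scale; overlapping peaks are drawn at the left edge, dashed line at 0.5 kb). Only the far upstream site of Fbn2 has points left of the line, and every other gap is 14.3 kb or more.

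Replicate support of the listed peaks rested on 1 site. A peak of the same-stage replicate within 500 bp was found for 2 of the 12 peaks, both at the far upstream Fbn2 site. By sample this was 1 of 3 peaks in OLP A against 20.9% of its listed peaks, 1 of 5 in OLP B against 34.1%, and 0 of 4 in iOL A against 25.9%. In iOL B, which held no peak of these genes, 45.3% of listed peaks had an iOL A peak nearby. A peak of any other sample was near 3 of 12 peaks, all at the same Fbn2 site, against 45.8% of all listed peaks. By gene, 4 of 7 (Pde4b, Rab3b, Atp1b2, Pcp4l1) were listed in 1 sample, against 63.9% of all listed genes. Fbn2 was listed in 3 samples and Tgfa and Csnk1g3 in 2. Counted by gene symbol, 5 genes had a peak in OLP, 4 in iOL and 2 in both (Csnk1g3 and Fbn2). Counted by listed site, only that of Fbn2 was shared by the stages. By sample, OLP A, OLP B, iOL A and iOL B listed 3, 4, 4 and 0 of the 7 genes. Of all 3888 listed genes they listed 2080, 1420, 1776 and 1099. The shares of all listed genes by stage were not counted, so nothing is read from the counts by stage. With 2 samples per stage, a permutation test of a stage difference could not go below p = 0.33, and none was made.

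Replicate support went with the score of a peak. In OLP A, 6.82% of listed peaks with a score of 40 to 50 had an OLP B peak nearby, 21.4% of those of 50 to 100 and 63.0% of those from 100 upwards. In OLP B the shares were 17.6%, 47.1% and 81.1%, and in iOL A 8.19%, 27.8% and 75.8%. Apart from Rab3b, the peaks of the 7 genes scored 41.13 to 70.71 and so belonged to the lower classes.

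The lists assign a gene only near a RefSeq start, so peaks at other places in and around the 7 genes carry no symbol. From 50 kb upstream of each gene to its end, 1337.8 kb in all, there were 19 peaks, the 12 above and 7 without a listed gene. The density was 1.42 peaks per 100 kb against 1.37 over the genome. It includes the 12 listed peaks, and the genes were chosen for having such peaks, so nothing is read from it. Pde4b, the longest gene at 519.7 kb, had 6 peaks (5 unlisted) and Fbn2 had 6 (2 unlisted). OLP A, OLP B, iOL A and iOL B held 6, 7, 5 and 1 of the 19. Of all 36280 peaks they held 12451, 7827, 10225 and 5777.

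An unlisted site at Pde4b was present in both OLP replicates. It lay 5.8 kb upstream of the first start of the gene in the reference annotation, at chr4:101754223-101754426 in OLP A and chr4:101754217-101754372 in OLP B, with summits at bases 101754335 and 101754332. The peaks held 9 and 13 tags with fold enrichments of 14.58 and 11.26, and neither iOL sample had a peak there. Of its 32-base stretches 85.0% (OLP A) and 79.2% (OLP B) recurred in the genome, and the stretch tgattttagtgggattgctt within it had 21020 copies. The OLP A sequence is given because this is the only site of Pde4b seen in both replicates of a stage, with every base in capitals as part of a repeated 20-base stretch.
Pde4b upstream, OLP A: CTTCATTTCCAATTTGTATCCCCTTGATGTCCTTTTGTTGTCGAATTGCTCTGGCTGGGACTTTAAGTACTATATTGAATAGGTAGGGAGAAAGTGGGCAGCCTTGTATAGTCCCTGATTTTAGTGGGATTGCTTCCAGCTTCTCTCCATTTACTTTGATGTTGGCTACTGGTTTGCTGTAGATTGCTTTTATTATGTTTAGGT

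A second unlisted Pde4b site, 95.5 kb inside the gene, had a peak in OLP A (7 tags, fold enrichment 13.93) and iOL A (12 tags, 18.19) and consisted entirely of repeated stretches. The remaining Pde4b site, 46.7 kb inside, was found in OLP A alone with 8 tags. In Fbn2, iOL B had a peak 23.9 kb inside the gene with 12 tags, 7.40-fold enriched, at a false discovery rate of 2.2%. It was the only iOL B peak in the stretches examined, held no repeated 32-base stretch, and had no peak of another sample nearby. A peak of OLP B 194.6 kb inside Fbn2 held 12 tags, also in unique sequence. The sites of Fbn2 in unique sequence were thus found in 1 sample each, and its site in 3 samples was of repeated sequence.

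**Figure D5:**
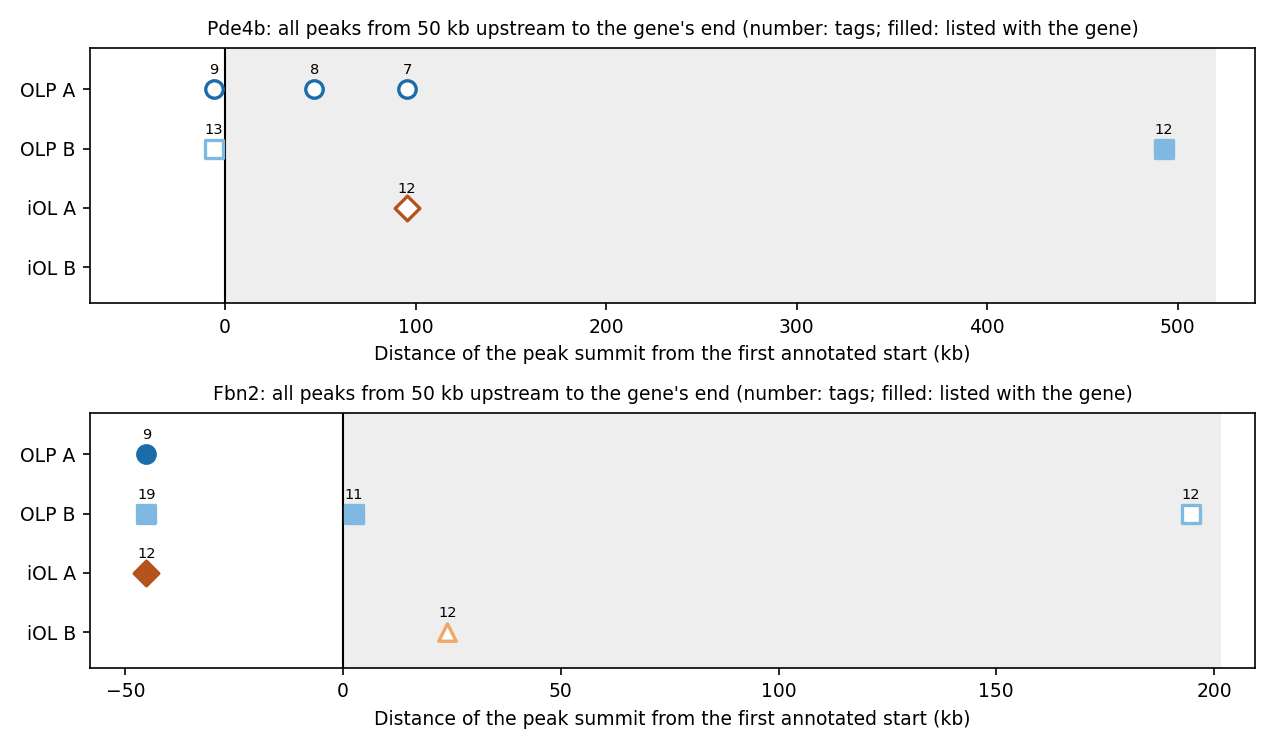
All peaks from 50 kb upstream to the end of Pde4b (top) and Fbn2 (bottom), by distance of the summit from the first annotated start (kb, gene shaded), in rows by sample with tags as numbers. Filled markers are listed with the gene and open markers carry no listed gene. At Pde4b the open markers at 5.8 kb upstream align in OLP A and OLP B, and at Fbn2 the filled markers at 45.2 kb upstream align in 3 samples.

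Relatives of the 7 genes were listed at a rate that can be set beside the 14.9% of all other coding genes. Of 38 other genes in 8 families, 10 had a peak. The EGF receptors, to which Tgfa binds, were counted as a family of their own. Among the EGF receptor ligands, the family of Tgfa, 4 of 10 others had one. Ereg (epiregulin) had a site 15.2 kb upstream in OLP B (10 tags) and iOL A (11 tags), while Epgn, Nrg3 and Nrg4 had 1 sample each. Of the 4 EGF receptors Egfr was listed, with a site 21.9 kb upstream in iOL A (10 tags) and OLP A (7 tags), and another in OLP A 19.9 kb upstream.

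Pde4d, a relative of Pde4b, was the only family gene with a site in all 4 samples. That site, 44.8 kb upstream and fully of repeated stretches, held 16 tags in OLP A, 14 in OLP B, 12 in iOL A and 15 in iOL B. Its fold enrichments were 25.34, 12.39, 29.77 and 9.0. Csnk1e (1 of 5 other casein kinase 1 genes) had a peak in OLP A and Rab3c (1 of 3 other Rab3 genes) in iOL A. Fbn1 and Ltbp1 (2 of 5 other fibrillin and latent TGF-beta binding protein genes) had 1 peak each, in OLP A. No peak was listed at the 7 other Na,K-ATPase subunit genes or at Pcp4.

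The genes most alike in pattern were those listed in the same samples with the nearest top fold enrichment. For Rab3b, 688 other genes were listed in iOL A alone, and Mrpl3 came closest at 32.25 against 39.18. The same search gave 4930448I18Rik for Tgfa, Ppp2r1b for Csnk1g3, Myo9a for Pde4b, Mcam for Atp1b2, Clec4b2 for Pcp4l1 and A530032D15Rik for Fbn2, each with the same fold enrichment as its partner. The likeness was over 4 samples and describes the lists alone.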

How the data were processed

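The authors sequenced ChIP and input DNA on an Illumina HiSeq 2000, kept reads that passed a FASTX quality filter, aligned them to mm9 with Bowtie2 and ran MACS on every ChIP library separately, with input as its control. The submitters' processing notes also name CASAVA 1.8. The MACS version, read length and number of aligned reads are not given in the sources used here. For each peak the deposited files hold an unnormalised count of tags. The authors' caller wrote significance as a score, -10*log10(p). The deposited fold enrichment is a linear ratio of tags to the background expected by MACS. The deposited false discovery rate is in percent. The 4 inputs have no file of their own, so peaks were not compared with input here.

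The 7 genes, the gene families and the tests were chosen with earlier results of these data known. All 7 genes were named, and other genes only as family members with a listed peak, neighbours of a peak, or the most alike gene in fold enrichment. Peaks at most 500 bp apart counted as shared, as in the study. Copies of 20-, 32- and 50-base stretches were counted in NCBIM37 on both strands, after a test on simulated sequence. Peaks were placed in GENCODE vM1 transcripts. No test between stages was run. Python 3.11.15, pandas 2.3.3, numpy 2.4.6, scipy 1.17.1, numba 0.67.0, pysam 0.24.0 and matplotlib 3.10.9 were used. Alternatives were other windows, tag, score and false discovery rate limits, gaps, motifs, stretch lengths, gene assignment, and leaving out each sample.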

Additional observations from a re-analysis of the deposited data

How the results depend on the processing

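The low tag numbers and the 2 replicates per stage limit these values, and depth before peak calling is unknown. Of 39 alternatives, 29 left a count within 1.5 times its value and 10 did not. Several of the 29 could not have moved and some of the 10 could not have stayed, so the tally does not measure robustness. The false discovery rate was at most 1.25% against a limit of 5%, and iOL B held no listed peak of these genes. Gaps outside the shared Fbn2 site were 14.3 kb or more, beyond the wider gaps tried. The number of genes with a peak was 5 to 7 under the alternatives tried. The genes were chosen for having a peak within 15 kb upstream to 5 kb downstream, so nothing is read from this range. The 12 peaks became 7 within 15 kb upstream to 5 kb downstream and 7 with at least 10 tags, which dropped Csnk1g3 and Atp1b2. Leaving out 1 sample gave 5 to 7 genes and 7 to 12 peaks. Without OLP B, Pde4b and Pcp4l1 were lost, and without iOL A, Rab3b and Atp1b2 were. The 2 peaks with a same-stage replicate peak became 0 in that window, 0 with at least 10 tags and 4 when genes were assigned by the nearest protein-coding start of the reference annotation, an alternative chosen after seeing the data that adds the Pde4b upstream site. Without OLP A or without OLP B the number was 0, and over all samples left out it ranged from 0 to 2. The 2 peaks were those of OLP A and OLP B at 1 Fbn2 site, so without either sample it had to be 0. That site, 45.2 kb upstream with 9 tags in OLP A, could not stay within the window or the tag limit either. Pairing by replicate letter across the stages (replicate block) gave 2 as well. The 2 peaks with a CCNCCC motif became 0 for CACCC and 0 for GGGCGG, which is a special case of CCNCCC. Mostly repeated peaks numbered 6 with 50-base, 7 with 32-base and 8 with 20-base stretches, the last chosen after seeing the data.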

Other observations

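Among all listed peaks, mostly repeated sequence was more frequent where a peak was found in several samples. At the 7 genes, all 3 peaks with a peak of another sample nearby were mostly repeated, but these were 1 Fbn2 site. Of their peaks found in 1 sample, 4 (Csnk1g3, Atp1b2 and Pcp4l1) were mostly repeated and the others were not. Of 4260 listed peaks found in 1 sample, 70.8% were mostly of repeated 32-base stretches. The share was 94.3% of the 2403 peaks also found in 1 or 2 others and 97.1% of the 1192 found in all 4 samples. The medians of GC content in these classes were 37.9%, 38.8% and 37.8%. The part of read placement in this order was not tested.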
